A study of Rattus norvegicus with 4 samples.

Results

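The miR-29 family of rat liver was followed across small RNA libraries of fibrotic and normal liver tissue. Its members were taken by name, as the rows rno-miR-29a, rno-miR-29b and rno-miR-29c (no asterisk; the prefix for rat is left off below), and are 3 of the 680 miRNA names that each deposited file lists. MicroRNAs (miRNAs) are short RNAs that pair with messenger RNAs, mainly through the seed at their 5′ end, and lower their output. The miR-29 family is known for repressing genes of the extracellular matrix, fibrillar collagens and elastin among them. In liver it is studied in hepatic stellate cells, the collagen-producing cells of fibrosis, where its members have been described as falling on activation. The messenger RNAs that the family represses were not measured in these libraries.

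The labels put 2 samples in hepatic fibrosis tissue and 2 in normal hepatic tissue, all from Rattus norvegicus. How the fibrosis was brought about is not given in the sources used here, nor is the strain, sex or age of the rats. Nor do the labels say whether the replicates of a group came from separate animals. The file of fibrosis replicate 2 and that of normal replicate 2 held the same value for all 680 names, with a column header that matched the sample title in the former and not in the latter. They were counted once, as the duplicated library. Its labels contradict each other, so its tissue is taken as unsettled, and the fits that place it in a group say which. The other libraries are fibrosis replicate 1 and normal replicate 1, written fibrosis 1 and normal 1. Values are in RPM, reads per 1000000 reads of the library. Divided by the worth of 1 read, 100% of the values above 0 were whole numbers of reads within 0.02 reads. The libraries were scaled to 6951148 reads (fibrosis 1), 7070374 reads (normal 1) and 6357069 reads (duplicated library). Hepatocyte identity was clear in all 3 libraries, with miR-122, the dominant hepatocyte miRNA, between 243915 and 263140 RPM. Intervals are 95% and exact, and like the limits at 0 they cover counting error only.

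The mature sequences, from RefSeq on the rat build GRCr8, are shown first because the members differ by so few bases. All 3 were matched by name. They run 5′ to 3′, with the seed (positions 2 to 8, counted from the 5′ end) in capitals.
miR-29a: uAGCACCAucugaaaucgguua
miR-29b: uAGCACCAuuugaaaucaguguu
miR-29c: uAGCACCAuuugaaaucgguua
The seed is the same in all 3, and among the 692 distinct mature rat sequences in that table it stands at these positions in 3, the members themselves. miR-29a and miR-29c differ by the single substitution C10U, with miR-29a given first. From miR-29c to miR-29b the changes are G18A, U21G and A22U, with 1 further base at the 3′ end of miR-29b. The last 6 bases of miR-29b, AGUGUU, occur in 8 of the 692 sequences (1.16%), and not in miR-29a or miR-29c. This ending is known as an element that directs miR-29b into the nucleus of cultured human cells. How reads that match several members were divided is not given in the sources used here, so the separate values of miR-29a and miR-29c, 1 base apart, are uncertain to that extent.

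The 4 hairpins stand in a pair of clusters, and are shown because Mir29b1 and Mir29b2 yield the same miR-29b. Both arms are in capitals, the 5′ arm first.
Mir29a, chr4:60617955-60618042, minus strand: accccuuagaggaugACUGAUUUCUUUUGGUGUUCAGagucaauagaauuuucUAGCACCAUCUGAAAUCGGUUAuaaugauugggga
Mir29b1, chr4:60618334-60618414, minus strand: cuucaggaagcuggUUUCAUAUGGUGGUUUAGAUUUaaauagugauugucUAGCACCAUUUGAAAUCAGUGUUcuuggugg
Mir29b2, chr13:109098831-109098911, plus strand: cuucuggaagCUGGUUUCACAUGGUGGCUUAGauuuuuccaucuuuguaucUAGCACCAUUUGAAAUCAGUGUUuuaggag
Mir29c, chr13:109099359-109099446, plus strand: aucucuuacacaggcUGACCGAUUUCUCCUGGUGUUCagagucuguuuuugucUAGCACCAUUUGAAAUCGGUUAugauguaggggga
On chromosome 4, 291 bases separate Mir29a from Mir29b1, and the nearest protein-coding genes on either side are Klf14 and Mkln1. On chromosome 13, 447 bases separate Mir29b2 from Mir29c. Both of these lie within the span of the long noncoding RNA gene LOC102550527, between Cd34 and Cd46. The reads of miR-29b cannot be assigned to one or the other hairpin.

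The unstarred 3′ arm made up nearly all of what the hairpins yielded. The starred 5′ arm of miR-29a had 3 reads in fibrosis 1, 1 in normal 1 and 2 in the duplicated library, against 10726, 12385 and 10392 reads of miR-29a. The starred arm of miR-29c had 1, 1 and 2 reads in the same order, against 802, 1033 and 617 reads of miR-29c. The arms that could have told the miR-29b hairpins apart gave too little to do so. miR-29b-1* had 0 reads in each library, and miR-29b-2* (matched to the 5′ arm of Mir29b2, which RefSeq lists as miR-29b-5p) had 0, 0 and 1. A count of 0 allows up to 0.432 RPM in fibrosis 1, 0.424 RPM in normal 1 and 0.472 RPM in the duplicated library.

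RefSeq also places a miRNA on the strand opposite 3 of these hairpins. miR-3556a, miR-3587 and miR-3556b are reverse complements, over 18, 21 and 20 bases, of the mature parts of miR-29a, miR-29b and miR-29c. Each of them had 0 reads in all 3 libraries, with the same limits.

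miR-29a was by far the most abundant member. It stood at 1543 RPM in fibrosis 1 (interval 1514 to 1573), 1752 RPM in normal 1 (1721 to 1783) and, in the duplicated library, 1635 RPM (1603 to 1666). That placed it at rank 9, 8 and 9 of all listed miRNAs. Its neighbours in rank were let-7 members (let-7d or let-7e) and miR-101b, and its interval overlapped none of theirs.

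miR-29c, the member 1 base away, was far less abundant. It stood at 115 RPM in fibrosis 1 (108 to 124), 146 RPM in normal 1 (137 to 155) and 97.1 RPM in the duplicated library (89.5 to 105). Its ranks were 27, 27 and 28, beside miR-122*, miR-25, miR-30d and miR-22. Of the 6 neighbours, 1 above or below in each library, only miR-122* in fibrosis 1 and miR-22 in normal 1 had intervals apart from its own.

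miR-29b was the rarest member. It stood at 12.7 RPM in fibrosis 1 (10.2 to 15.6), 14.6 RPM in normal 1 (11.9 to 17.7) and 8.49 RPM in the duplicated library (6.38 to 11.1), on 88, 103 and 54 reads. At ranks 68, 62 and 75 its interval overlapped those of its neighbours in rank in each library (miR-33, miR-22*, miR-27b, miR-181b and miR-126*). The order miR-29a, miR-29c, miR-29b was the same in all 3 libraries, with no overlap of intervals between members.

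**Figure D1:**
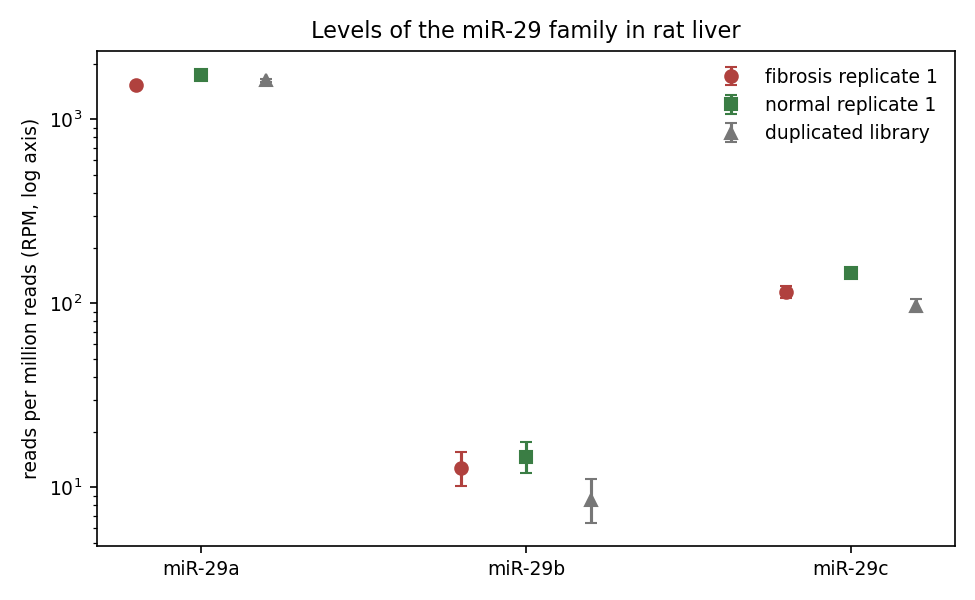
Level of each miR-29 member (RPM, log axis) in the 3 distinct libraries, with 95% exact counting intervals. miR-29a lies between 1543 and 1752 RPM, miR-29c between 97.1 and 146 RPM and miR-29b between 8.49 and 14.6 RPM. For each of them normal 1 has the highest point value, and for miR-29b its interval overlaps that of fibrosis 1.

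The family as a whole took 0.331% of the reads on listed miRNAs in fibrosis 1 (interval 0.325 to 0.337), 0.370% in normal 1 (0.364 to 0.376) and 0.331% in the duplicated library (0.325 to 0.337). With miR-122 and the let-7 names set aside, the family made up 8.17%, 8.55% and 8.68% of the remaining reads. On the first denominator normal 1 was the highest library. On the second the duplicated library was highest by point value only, since no interval was computed for those shares.

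Within the family, miR-29a held more than 9 reads in 10. Its share of the reads of the 3 members was 92.3% in fibrosis 1 (91.8 to 92.8), 91.6% in normal 1 (91.1 to 92.1) and, in the duplicated library, 93.9% (93.5 to 94.4). miR-29c took 6.90% (6.45 to 7.38), 7.64% (7.20 to 8.10) and 5.58% (5.16 to 6.02) in the same order. miR-29b took 0.758% (0.608 to 0.933), 0.762% (0.622 to 0.923) and 0.488% (0.367 to 0.636). The shares of fibrosis 1 and normal 1 overlapped in interval for all 3 members. Compared directly, the ratio of miR-29a to miR-29c in fibrosis 1 was still 1.12 times that in normal 1 (1.01 to 1.23). The duplicated library held less of miR-29c and more of miR-29a than either, with intervals that did not overlap. These shares do not depend on how the libraries were scaled.

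**Figure D2:**
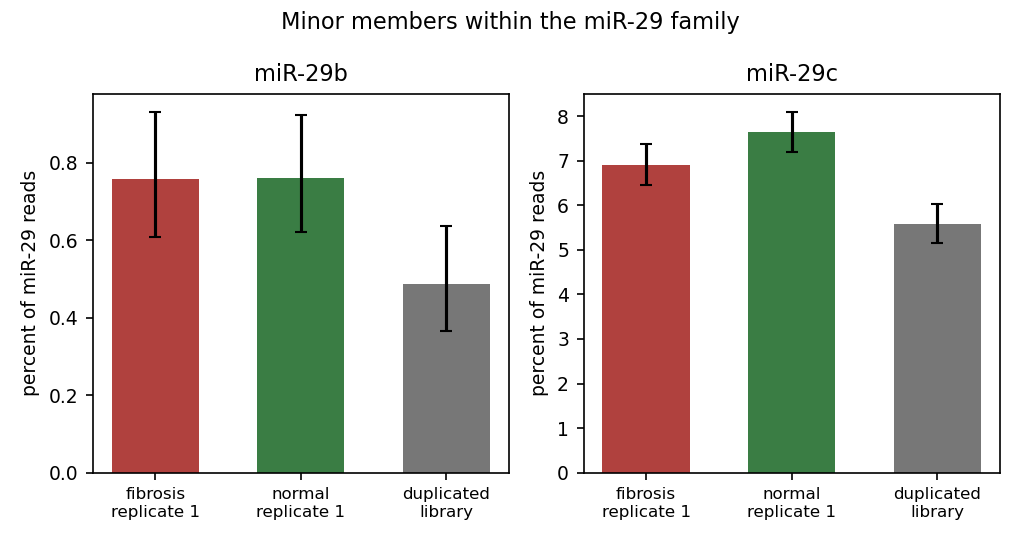
Share of the reads of the 3 miR-29 members (percent) taken by miR-29b (left) and miR-29c (right) in each distinct library, as bars with 95% exact intervals. The duplicated library has the lowest share of both, 0.488% of miR-29b and 5.58% of miR-29c.

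The clustered pairs compare miRNAs that stand next to each other in the genome and are known to be made from a shared primary transcript. For the chromosome 4 pair there were 122 reads of miR-29a per read of miR-29b in fibrosis 1 (98.8 to 152), 120.2 in normal 1 (99.1 to 147) and 192 in the duplicated library (147 to 256). Since part of miR-29b may come from chromosome 13, these ratios are lower limits for miR-29a against the product of Mir29b1. Between fibrosis 1 and normal 1 the ratio differed by a factor of 1.01, with an exact conditional interval (0.754 to 1.36) that includes 1. In the duplicated library the ratio was 1.60 times that of normal 1 (1.14 to 2.27), and that of fibrosis 1 was 0.633 times that of the duplicated library (0.442 to 0.900).

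For the chromosome 13 pair there were 9.11 reads of miR-29c per read of miR-29b in fibrosis 1 (7.31 to 11.5), 10.03 in normal 1 (8.18 to 12.4) and 11.4 in the duplicated library (8.64 to 15.4). Between libraries this ratio differed by a factor of 0.909 for fibrosis 1 over normal 1 (0.667 to 1.24). The factor was 1.14 for the duplicated library over normal 1 (0.799 to 1.64) and 0.798 for fibrosis 1 over the duplicated library (0.548 to 1.15). All 3 intervals include 1, so a difference in this pair was not detectable at the depth of miR-29b, and changes up to the ends of these intervals remain possible.

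miR-29a and miR-29c, which come from different clusters, stood in a different ratio in each library, with intervals between libraries that exclude 1 in all 3 comparisons. There were 13.4 reads of miR-29a per read of miR-29c in fibrosis 1 (12.4 to 14.4), 11.99 in normal 1 (11.3 to 12.8) and, in the duplicated library, 16.8 (15.5 to 18.3). In fibrosis 1 the ratio was 1.12 times that in normal 1 (1.01 to 1.23), and in the duplicated library 1.405 times (1.27 to 1.56). Against the duplicated library, fibrosis 1 gave a factor of 0.794 (0.711 to 0.886). As a distance between the log2 ratios of both members, fibrosis 1 over normal 1, the first of these factors is 0.16. Over the 2850 pairs that can be formed from the 76 miRNAs averaging 10 RPM or more over these libraries, the median distance was 0.33, and 72.3% of pairs lay at least as far apart. For the duplicated library over normal 1 the distance was 0.49, with a median of 0.50 over 2628 pairs and 51.1% at least as far apart. The distances of miR-29a from miR-29b were 0.020 and 0.68 in these comparisons, with 96.4% and 36.4% of pairs at least as far apart. Those of miR-29c from miR-29b were 0.14 and 0.19, with 76.1% and 80.3%. In the second comparison miR-29b (8.49 RPM in the duplicated library) met the mean of 10 RPM only through normal 1 (14.6 RPM). Its distances and shares there are tied to that filter. miR-29a and miR-29c, which do not depend on it, parted no further than many pairs of miRNAs in the same libraries did.

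Between fibrosis 1 and normal 1, all 3 members had ratios below 1. The ratio was 0.881 for miR-29a (counting interval 0.858 to 0.904), 0.790 for miR-29c (0.719 to 0.867) and 0.869 for miR-29b (0.646 to 1.17). For the sum of the members it was 0.874 (0.852 to 0.896). The interval of miR-29b includes 1. Of the 76 miRNAs that averaged 10 RPM or more in these libraries, 61.8% had a ratio below 1 and 34.2% an interval wholly below 1, against 3 and 2 of the 3 members. Another 23.7% had an interval wholly above 1, and 0 members did. Ranked from the lowest ratio, miR-29c was number 11, miR-29b number 25 and miR-29a number 29. The median log2 ratio over the 76 was -0.11, beside -0.18 for miR-29a, -0.20 for miR-29b and -0.34 for miR-29c. With 1 library on each side there is no replicate check, and the values describe these libraries and not the conditions.

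A fold of 1.2 or more toward lower values was reached by miR-29c alone of the members, and by 22.4% of the 76 miRNAs. In a bulk tissue, fewer cells of a type and less RNA per cell cannot be told apart.

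The duplicated library placed the members otherwise. Its ratio to normal 1 was 0.933 for miR-29a (0.909 to 0.958), 0.664 for miR-29c (0.600 to 0.735) and 0.583 for miR-29b (0.411 to 0.818). All 3 intervals lie below 1, as did those of 38.4% of the 73 miRNAs compared, while 34.2% lay above. In the duplicated library miR-29b stood at 8.49 RPM, and it met the mean of 10 RPM only through normal 1 (14.6 RPM). Its place beside these shares is therefore tied to that filter. Both comparisons share normal 1, the highest library for each member by point value. For miR-29b the intervals of normal 1 and fibrosis 1 overlap. Normal 1 was also the highest library for 43.8% of the 73 miRNAs that averaged 10 RPM or more across all 3.

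Set against the duplicated library, fibrosis 1 was lower for miR-29a and higher for the other members. The ratio was 0.944 for miR-29a (0.919 to 0.970), 1.19 for miR-29c (1.07 to 1.32) and 1.49 for miR-29b (1.05 to 2.13). Of the 72 miRNAs compared, 33.3% had intervals wholly below 1 and 34.7% wholly above. Here miR-29b met the mean of 10 RPM only through fibrosis 1 (12.7 RPM), so its higher value is tied to the filter as well. If the duplicated library were fibrotic, the fibrosis replicates would differ more in miR-29b than fibrosis 1 and normal 1 did, by point value. The intervals of both miR-29b ratios are wide (1.05 to 2.13, and 0.646 to 1.17). In miR-29a and miR-29c those replicates would differ less than fibrosis 1 and normal 1 did. If the duplicated library were normal, miR-29b and miR-29c in fibrosis 1 would lie above 1 normal library and, by point value, below the other.

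**Figure D3:**
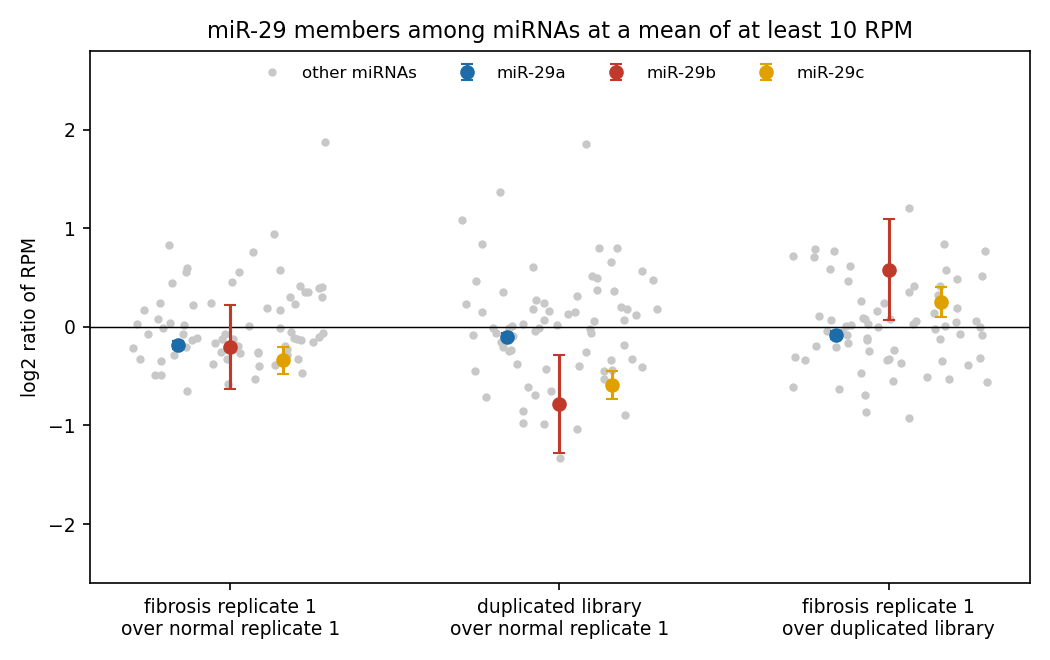
Log2 ratio of RPM for each pair of distinct libraries, with 95% counting intervals for the miR-29 members and grey points for the other miRNAs at a mean of at least 10 RPM. The members lie within the cloud of other miRNAs in each comparison, and miR-29b and miR-29c are below 0 against normal 1 and above 0 against the duplicated library.

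For all 3 members the direction of fibrosis 1 against normal 1 was the same under the 6 scalings tried. Under the deposited RPM, the reads on listed miRNAs, those reads without miR-122, TMM factors, DESeq2 size factors and the upper quartile, the ratio of miR-29a ran from 0.838 to 0.923, that of miR-29c from 0.752 to 0.827 and that of miR-29b from 0.827 to 0.911. The intervals of miR-29a and miR-29c excluded 1 under all 6 and that of miR-29b under none. The median ratio of the 76 miRNAs ran from 0.881 to 0.970 under the same scalings. The share of these miRNAs with intervals wholly below 1 ran from 28.9% with TMM and DESeq2 size factors, where 22 were lower and 22 higher, to 46.1% with the upper quartile, where 35 were lower and 16 higher.

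**Figure D4:**
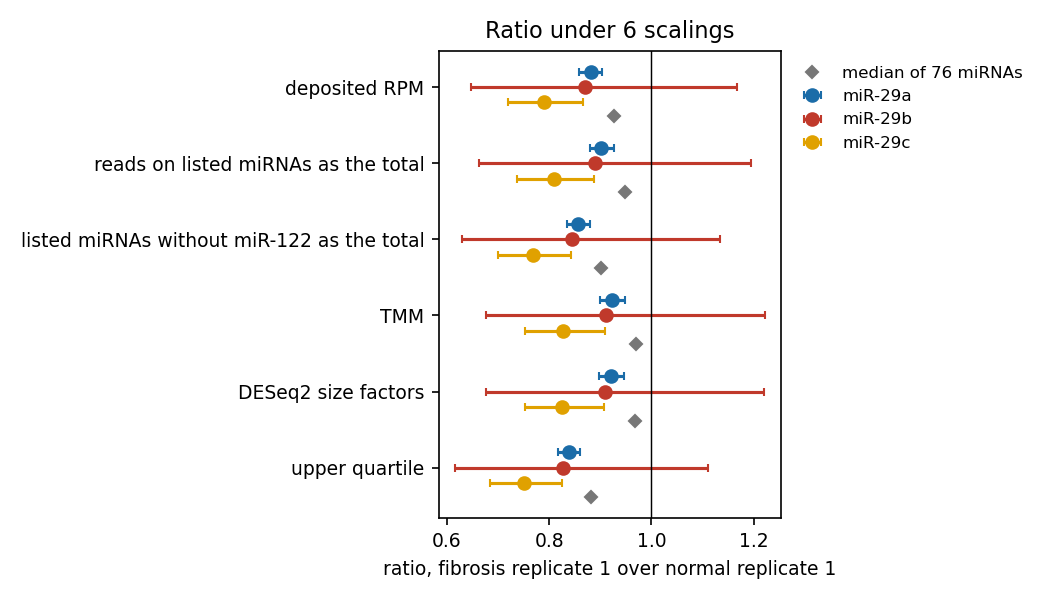
Ratio of fibrosis 1 to normal 1 for each miR-29 member under 6 scalings, with 95% counting intervals, and the median of the 76 miRNAs as diamonds. miR-29c is lowest by point value, at 0.752 to 0.827. No scaling can change that order, because each multiplies all ratios by the same factor. The interval of miR-29b spans 1 under each scaling.

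The comparison that the labels imply, 2 fibrosis against 2 normal files, called none of the members. limma was fitted to log2(RPM + 1) of the 294 miRNAs with a read in any library. It called 0 of them (0%) at a Benjamini-Hochberg adjusted p under 0.05. Before adjustment, 4 (1.36%) were under 0.05. The fitted log2 difference, fibrosis over normal, was -0.091 for miR-29a (SE 0.22), -0.094 for miR-29b (SE 0.39) and -0.17 for miR-29c (SE 0.30), and limma's adjusted p was 1 for all 3. On the recovered reads edgeR's quasi-likelihood test and DESeq2 each called 0, with 1 and 0 miRNAs at an unadjusted p under 0.05. In the limma fit 1 library stands in both groups, so each difference equals that between fibrosis 1 and normal 1 on the log2(RPM + 1) scale divided by 2, and the fit has little power to call a miRNA.

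Counting the duplicated library once moved the members in different ways. As a fibrosis library it gave log2 differences of -0.14 for miR-29a, -0.45 for miR-29b and -0.46 for miR-29c, with adjusted p-values from limma of 0.723, 0.723 and 0.620. As a normal library it gave -0.13, 0.17 and -0.0455, with adjusted p-values from limma of 0.891, 0.949 and 0.992. The group left with a single library is taken to have the spread of the other. Only miR-29a held nearly the same value in both, and the sign of miR-29b depended on which label was taken.

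The miRNAs most like miR-29a over the 3 libraries, by the distance between their pairs of log2 ratios to normal 1, were miR-122, miR-125b-5p, miR-122* and miR-125a-5p of 72 compared. Their distances ran from 0.075 for miR-122 to 0.10 for miR-125a-5p, on the log2 scale. Both arms of the miR-122 hairpin are thus on this list. miR-29c, at 0.52, was only number 39 in nearness to miR-29a. The miRNAs most like miR-29c were miR-16, miR-30a, miR-194 and miR-664-2*, at distances from 0.15 to 0.21. miR-29b, which shares a cluster with each of them, was number 5 in nearness to miR-29c, at 0.23, and number 50 in nearness to miR-29a, at 0.68. With 3 libraries such distances describe these samples only, and counting noise enters those of rarer miRNAs. The miRNAs compared averaged 10 RPM or more over the 3 libraries, a mean that miR-29b met only through fibrosis 1 and normal 1.

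Other miRNAs described as lowered in liver fibrosis, or as limiting stellate cell activation, were listed without the miR-29 family. Of 18 names, 10 had a mean of at least 10 RPM in fibrosis 1 and normal 1, 9 of these had ratios below 1, 5 had intervals wholly below 1 and 0 wholly above. Over all 76 these shares were 61.8%, 34.2% and 23.7%. Their median log2 ratio was -0.18, against -0.11 for all 76. The most abundant of the 5 were miR-122 (ratio 0.927, 0.925 to 0.929) and miR-101b, a repressor of the histone methyltransferase Ezh2 (0.834, 0.810 to 0.859). Of 12 names described as raised in activated stellate cells, 7 were abundant enough, 5 of them with intervals above 1 and 1 below, against 23.7% and 34.2% of the 76. Their median was 0.56. Of the 5, miR-33 (14.1 RPM in fibrosis 1, 7.92 RPM in normal 1) met the mean of 10 RPM only through fibrosis 1. Its count as higher is therefore tied to that filter. The most abundant with higher values were miR-199a-3p, a mesenchymal miRNA (1.69, 1.61 to 1.78), and miR-181a, known from lymphocyte development (1.47, 1.22 to 1.79), and the 1 lower was miR-21, a miRNA of the injury response (0.897, 0.867 to 0.927).

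Markers of the cell types that a piece of liver can hold were summed in the same libraries. The 4 hepatocyte miRNAs (miR-122, miR-192, miR-194 and miR-193) summed to 251813 RPM in fibrosis 1, 272178 in normal 1 and 255505 in the duplicated library. Of these sums miR-122 alone made up 243915, 263140 and 247931 RPM. The next, miR-192, stood at 7826, 8936 and 7492 RPM. All 4 had ratios of fibrosis 1 to normal 1 with intervals below 1, against 34.2% of the 76 miRNAs. The 5 mesenchymal and smooth muscle miRNAs summed to 669, 466 and 1009 RPM, of which miR-199a-3p alone made up 592, 350 and 903 RPM. Of 3 measurable members, 1 was higher, miR-199a-3p, and 2 were lower. The lower ones were miR-143 (ratio 0.639, 0.565 to 0.721) and miR-145 (0.671, 0.482 to 0.930). With 9.21 RPM in fibrosis 1, miR-145 met the mean of 10 RPM only through normal 1 (13.7 RPM), so its count as lower is tied to that filter. The 5 leukocyte miRNAs summed to 49.6, 37.8 and 70.5 RPM, of which miR-142-5p alone, the 1 member abundant enough for a ratio, made up 39.4, 26.4 and 56.0 RPM. The next, miR-146a, stood at 7.77, 9.76 and 10.9 RPM. Of the remaining lists no member averaged 10 RPM. The 2 endothelial miRNAs summed to 7.77, 6.51 and 10.9 RPM, the 2 erythroid ones to 2.88, 7.78 and 2.04 and the 4 of striated muscle to 2.30, 5.37 and 6.45. Of the latter, miR-133a and miR-133b were at 0 in fibrosis 1 and the duplicated library. The part of cell composition in the levels of the miR-29 family was not tested.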

How the data were processed

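Per the labels' protocols, the libraries were prepared from total rat liver RNA using an Illumina small RNA kit. CASAVA 1.4 and the build rn5 are named in the submitters' processing notes. For the aligner and the miRNA annotation, the version is not given in the sources used here. The deposited values are RPM computed by the authors. Whole reads were recovered from them and used for intervals, edgeR 4.0.16 and DESeq2 1.42.0. The planned test, set for normalized values, was limma 3.58.1, run in R 4.3.3, applied to log2(RPM + 1) with Benjamini-Hochberg adjustment over miRNAs above 0 in any library, and was tested on simulated data. A fold change on that scale understates changes of low miRNAs. The smallest exact permutation p that 2 against 2 allows is 0.333. Ratios between libraries have exact (Clopper-Pearson) binomial intervals, and ratios of ratios exact conditional ones (scipy 1.17.1, Python 3.11.15).

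The members and lists were chosen with earlier results of these data known. Besides the members and their starred arms, the text names rank neighbours, the 4 miRNAs nearest to miR-29a and to miR-29c, and up to 2 listed miRNAs per direction, the most abundant whose interval excludes 1. Cell type markers, and listed miRNAs that met the abundance filter through 1 library only, are named as well. Sequences and coordinates are from RefSeq (GRCr8), and no genome of the files' build was used. Alternatives covered scaling, pseudocount, filter, test, replicate block, arms and libraries.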

Additional observations from a re-analysis of the deposited data

How the results depend on the processing

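The 4-library comparison called 0 miRNAs under all alternatives run: pseudocounts of 0.5 and 10, no filter, a mean of at least 1 RPM, TMM, edgeR, DESeq2, the replicate block and each library left out (range 0 to 0), with 0 to 36 miRNAs at an unadjusted p under 0.05. The fit without a filter rests on many rows at 0 and its variance estimate is unreliable. With the replicate block limma called 0, with 0 miRNAs at an unadjusted p under 0.05. The numbers are only names here, and the correlation of deviations between same-numbered libraries, 0.68, is raised by the shared library. Without 1 library at a time, the log2 difference of miR-29b ran from -0.451 (without normal replicate 2) and that of miR-29c from -0.4616 (likewise). That of miR-29b turned to 0.1681 without fibrosis replicate 2 (the same fit as the duplicated library once, as normal) and to 0.2624 without normal replicate 1, and that of miR-29c to 0.1236 without normal replicate 1, where the duplicated library stands in both groups. The ratios of miR-29a and of the sum, fibrosis replicate 1 over normal replicate 1, moved past their counting intervals with miR-122 left out (0.857 and 0.850), TMM (0.923 and 0.916), DESeq2 size factors (0.921 and 0.914) and the upper quartile (0.838 and 0.832), by construction of the totals.

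With the duplicated library in place of fibrosis replicate 1 the ratios were 0.933 for miR-29a, 0.583 for miR-29b, 0.664 for miR-29c and 0.910 for the sum. In place of normal replicate 1 they were 0.944, 1.49, 1.19 and 0.960, which turned the direction of miR-29b and miR-29c. In either place the family shares became 93.9%, 0.488% and 5.58%, and the change in reads of miR-29a per read of miR-29b became 1.60 and 0.633. The cause was not tested. Adding starred arms left shares and pair ratios within their intervals. Depth limits miR-29b most, on 54 to 103 reads.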

Other observations

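Other pairs of near-identical miRNAs were compared between the libraries in the same way, with no test of the conditions. The ratio of miR-101b to miR-101a, both repressors of Ezh2, differed by a factor of 1.08 for fibrosis 1 over normal 1 (exact conditional interval 0.998 to 1.18) and of 1.04 for the duplicated library over normal 1 (0.955 to 1.12). The ratio of miR-181a to miR-181b differed by 1.004 (0.691 to 1.45) and 1.14 (0.740 to 1.75). That of miR-26a to miR-26b differed by 1.19 (1.11 to 1.27) and 0.526 (0.489 to 0.566). For miR-29a to miR-29c the factors were 1.12 and 1.405. The pairs beside it were chosen after values of the series were known.

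The order of the libraries by point value also separated the members. miR-29b and miR-29c were highest in normal 1 and lowest in the duplicated library, as were 23 of the 73 miRNAs that averaged 10 RPM or more (31.5%, members included). For miR-29b the intervals of normal 1 (11.9 to 17.7 RPM) and fibrosis 1 (10.2 to 15.6 RPM) overlap, so its highest library is not settled. At 8.49 RPM in the duplicated library, miR-29b met the mean of 10 RPM only through those libraries. Its place among the 23 is therefore tied to that filter. miR-29a was highest in normal 1 and lowest in fibrosis 1, as were 9 of the 73 (12.3%).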
